A study of Rattus norvegicus with 8 samples.

Results

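The comparison set N27 cells given MPP+ against control N27 cells, and was read from 4 of the 8 arrays of the study, namely those titled as MPP1, MPP2, Control1 and Control2. N27 is an immortalised rat line derived from embryonic day 12 mesencephalon, which the labels describe as dopamine producing. The cells grew in RPMI medium. MPP+ was given at 250 µM for 48 h. The control arrays carry no treatment in the labels, and no vehicle is named. The other 4 arrays held N27 cells given Mn (2 arrays, 150 µM for 48 h) or 3-NPA (2 arrays, with no dose or time in the labels), and served for direct comparisons with MPP+. All groups are 1 cell line, and the labels do not say whether the 2 arrays of a group came from separate cultures, so that every p-value measures only the spread between these arrays.

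MPP+ (1-methyl-4-phenylpyridinium) is the toxic product of MPTP, a compound that destroys dopamine neurons and causes parkinsonism. In neurons it enters through the dopamine transporter, is stored in vesicles by the vesicular monoamine transporter or gathers in mitochondria, and there blocks complex I of the respiratory chain. Mitochondrial stress can reach the nucleus through the integrated stress response, in which phosphorylation of eIF2 alpha slows general translation while the transcription factor ATF4 is translated and turns on genes for amino acid uptake, amino acid synthesis and tRNA charging.

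Each array measured 1-colour (Cy3) signal from 58717 non-control spots, for 30367 probes. Levels are given as log2 signal over the 75th percentile of the array, so that 0 is the level of a bright gene and each unit is a 2-fold step. A gene was tested where its probe was well above background on both arrays of either group, which left 16262 genes, 12520 of them with a symbol. A difference was called at an adjusted p below 0.05 in limma. With MPP+, 2327 genes were called (14.3% of those tested), of which 1314 were higher (8.08%) and 1013 lower (6.23%), and the median difference over all genes was 0.02. The difference was at least 2-fold for 321 of the higher genes (1.97% of those tested) and 215 of the lower ones (1.32%). Scaling each array to its median instead put the median of all genes at 0.14 and 75.4% of calls higher, against 56.5% here, and normexp background correction put 41.3% higher. Without MPP+ array 1 there were 525 calls and without MPP+ array 2 there were 414. Without either 3-NPA array there were 1301, and 352 of the 2327 calls held whichever of the 8 arrays was left out. The arrays of both groups lay apart, with no overlap, in 10358 genes (63.7%), so that this alone was common.

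The control arrays had the higher background. Between 32711 and 34060 of their spots were well above background, against 39832 to 41013 on the MPP+ arrays, and the lowest level that counted as such was -4.79 and -4.42 on the control arrays and -6.84 and -6.58 on the MPP+ arrays. By that mark, 2678 tested genes were dim on both control arrays and bright on both MPP+ arrays, and 398 of them were called higher, whereas 2 genes were dim on both MPP+ arrays only. These 398 are part of the 1314 and of the list counts. For such a gene the text gives "at least N-fold", the MPP+ mean against the lowest level well above background on the control arrays, and no fold where that bound is under 1. The bound was above 1-fold for 138 of the 398 and above 2-fold for 14, and 31 were called with normexp. For genes whose difference shrank by more than 1.5 times under normexp correction, that value stands beside it. Among the 12816 genes well above background on all 4 arrays, 912 were called higher and 948 lower. All arrays lay on 1 slide, with control in the upper row and MPP+ in the lower row, so that slide row and treatment cannot be told apart.

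**Figure D1:**
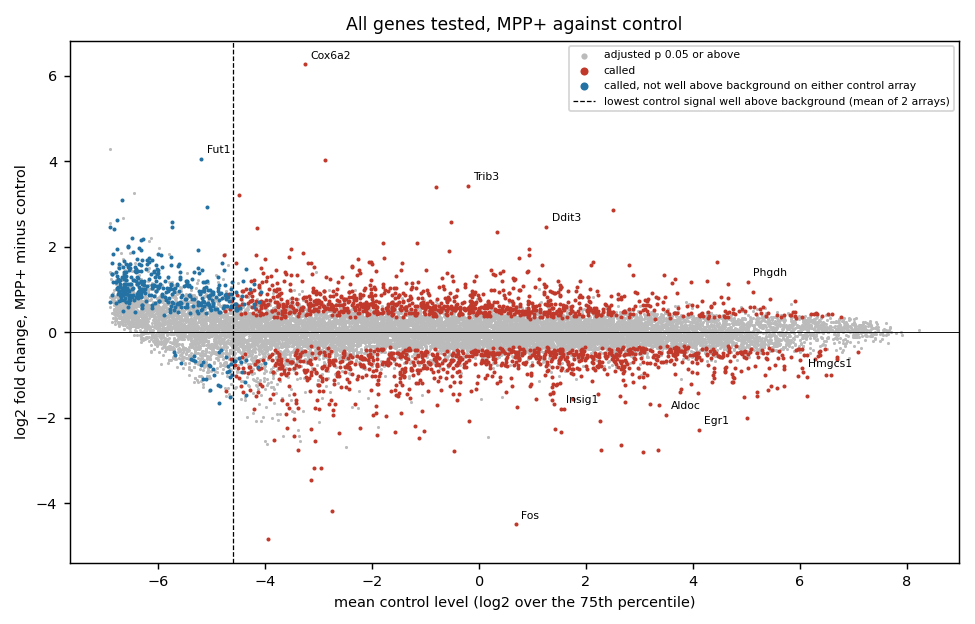
Mean control level (x axis, log2 over the array's 75th percentile) against the log2 fold change with MPP+ (y axis) for the 16262 genes tested. Grey points were not called, red points were called at an adjusted p below 0.05, and blue points were called and dim on both control arrays; the dashed line marks the mean of the lowest control levels well above background, and the blue points crowd to its left and above 0.

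Most genes of the integrated stress response rose. Of 17 tested transcription factors and feedback genes of the response, 16 rose and none fell, with a median difference of 1.21, and the count was 10 without MPP+ array 1 and 10 without MPP+ array 2. Trib3, a pseudokinase that is induced by ATF4 and CHOP and restrains them, stood at -0.29 and -0.13 on the control arrays and 3.26 and 3.18 on the MPP+ arrays. The groups lay far apart, and the difference was 3.43 ± 0.13 (SE, n = 2 per group), or 10.8-fold (adjusted p = 0.000394). Ddit3, which encodes the transcription factor CHOP, was at 1.28 and 1.24 in control and at 3.72 and 3.73 with MPP+, a rise of 2.47 ± 0.11 (adjusted p = 0.000459). Atf4 itself went from 5.05 and 5.18 to 6.01 and 6.10, a rise of 0.94 ± 0.10 (adjusted p = 0.00362). For both genes each MPP+ array lay above each control array. Sesn2, a stress-induced inhibitor of mTORC1, was near the background on the control arrays, at -4.16 and -4.16, and reached -1.94 and -1.50 with MPP+. Its difference was 2.44 ± 0.18 (adjusted p = 0.00172) and 1.56 with normexp. The ATF4 relatives and stress regulators Atf5 (1.58, adjusted p = 0.00195) and Nupr1 (1.46, adjusted p = 0.00148) rose as well. Stc2, a secreted glycoprotein, was dim on both control arrays and at -2.24 and -2.08 with MPP+, at least 5.39-fold higher (adjusted p = 0.00177; 1.58 with normexp). Smaller rises were those of Chac1, which degrades glutathione, at 1.33, of Ddit4, an mTORC1 inhibitor, at 0.66, and of Atf3 at 0.50. Chac1 and Ddit4 (either MPP+ array) and Atf3 (control array 2, either MPP+ array or either 3-NPA array) lost their calls without the arrays in brackets (highest adjusted p = 0.130). Cebpb, a partner of ATF4 and CHOP, was at 5.30 and 5.56 in control and 5.27 and 5.28 with MPP+ and did not pass (adjusted p = 0.391).

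The sites that ATF4 and its C/EBP partners bind are the C/EBP-ATF response elements, and the promoters of the genes above are shown to give their sequence context. The letters TGATGNAA were searched on both strands from 250 bases before each RefSeq gene start to 50 after it (GRCr8). They stood in 1048 of 27457 promoters (3.82%) and in 211 of the 9662 promoters of tested genes (2.18%). Among the stress response genes they stood in 6 of 15 promoters, in 3 of 14 for amino acid transporters, in 3 of 15 for serine, proline and one-carbon enzymes, in 7 of 17 for cytosolic aminoacyl-tRNA synthetases and in 1 of 10 for secreted stress factors. Slc38a1, Got1 and Tars1 hold a match and were not called. A match is a description of the letters and not a shown binding site. Stretches from 8 of the genes that rose follow, 5′ to 3′ in the direction of the gene, with the match or its reverse complement in capitals.
Trib3, chr3:161275535-161275566, minus strand: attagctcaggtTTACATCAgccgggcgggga
Nupr1, chr1:190645937-190645968, minus strand: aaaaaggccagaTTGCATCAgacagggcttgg
Chac1, chr3:126795952-126795983, plus strand: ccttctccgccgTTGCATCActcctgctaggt
Slc7a1, chr12:11664446-11664477, plus strand: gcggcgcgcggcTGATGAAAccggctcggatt
Pck2, chr15:32997603-32997633, plus strand: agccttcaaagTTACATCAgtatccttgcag
Iars1, chr17:15193657-15193688, minus strand: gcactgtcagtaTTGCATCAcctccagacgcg
Mars1, chr7:65023754-65023782, minus strand: ggcccgttccggTTGCATCAgcgtgggct
Fgf21, chr1:105221500-105221531, minus strand: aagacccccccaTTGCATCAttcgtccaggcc

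Genes of amino acid uptake and synthesis rose with the stress regulators. Of 17 amino acid transporters 8 rose and none fell (median 0.66; 5 without MPP+ array 1 and 5 without MPP+ array 2), and of 18 enzymes of serine, asparagine, proline and one-carbon metabolism 11 rose and 1 fell (median 1.04, or 0.63 with dim genes at their bound). Slc7a5, a subunit of the LAT1 carrier of large neutral amino acids, stood at -2.08 and -2.37 on the control arrays and at -0.93 and -0.74 on the MPP+ arrays. The difference was 1.40 ± 0.14, or 2.63-fold (adjusted p = 0.00346), with no overlap. The cystine carrier Slc7a11 rose by 4.04 ± 0.10 by its brightest probe, from -2.78 and -2.97 to 1.18 and 1.16, while its other probe gave 0.87. The cationic amino acid carriers Slc7a3 (3.39, adjusted p = 0.000394) and Slc7a1 (1.39, adjusted p = 0.00141) and the glycine carrier Slc6a9 (1.05, adjusted p = 0.00451) also rose. Slc1a4, a carrier of alanine, serine and cysteine, passed at 0.66 (0.43 with normexp), and Slc38a2, a glutamine carrier, did not pass (3.75 and 3.77 in control, 3.51 and 3.56 with MPP+). Slc1a4 lost its call without control array 1 or either MPP+ array (highest adjusted p = 0.130).

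Among the enzymes, asparagine synthetase (Asns) was at 0.88 and 0.99 in control and 2.88 and 2.91 with MPP+, a 3.89-fold rise (adjusted p = 0.000459). All 3 steps from glycolysis to serine were higher, with Phgdh at 1.19, Psat1 at 1.18 and Psph at 1.24 on the log2 scale. Mthfd2, the mitochondrial folate enzyme, went from 2.75 and 2.85 to 4.38 and 4.37 (difference 1.57 ± 0.10, adjusted p = 0.00125). Aldh18a1, which starts proline synthesis in mitochondria, rose by 1.44 (adjusted p = 0.00278). Pck2, the mitochondrial phosphoenolpyruvate carboxykinase, was at 2.12 and 2.08 on the control arrays and at 3.71 and 3.64 on the MPP+ arrays, a difference of 1.58 ± 0.08 (adjusted p = 0.000661). In each of these enzymes the MPP+ arrays lay above both control arrays. The 1 member that fell was Cbs, which joins homocysteine and serine on the way to cysteine. It stood at -3.34 and -3.61 in control and -5.81 and -5.96 with MPP+, a difference of -2.41 (adjusted p = 0.000996; -1.11 with normexp). Bcat1 (0.47, adjusted p = 0.0528) and Mthfd1 (-0.07, adjusted p = 0.803) did not pass. Psat1 lost its call without either MPP+ array (highest adjusted p = 0.103).

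The enzymes that charge tRNAs in the cytosol rose as well. Of 20 cytosolic aminoacyl-tRNA synthetases 13 rose and none fell, with a median of 0.72, and the count was 4 without MPP+ array 1 and 3 without MPP+ array 2. Of 15 mitochondrial ones 2 rose (13.3%, against 14.3% of all genes called), with a median of 0.24. The difference between these lists was not tested. Sars1, for serine, was at 0.80 and 0.49 in control and 1.84 and 1.92 with MPP+ (difference 1.23 ± 0.14, adjusted p = 0.00453). Eprs1, for glutamate and proline, was at 3.66 and 3.56 in control and 4.72 and 4.81 with MPP+ (difference 1.15 ± 0.10, adjusted p = 0.00219). These were the members whose calls held whichever array was left out. The enzymes for isoleucine, methionine, leucine and asparagine (Iars1, Mars1, Lars1 and Nars1) had differences of 0.85, 0.77, 0.96 and 0.99. Iars1 and Mars1 (either MPP+ array), Lars1 (MPP+ array 1) and Nars1 (MPP+ array 2) lost their calls without the arrays in brackets (highest adjusted p = 0.0671). Those for phenylalanine and threonine did not pass, with Farsa at -0.05 and Tars1 at 0.19. Of the mitochondrial enzymes, Mars2 (1.05, adjusted p = 0.0167; 0.51 with normexp) and Ears2 (0.54, adjusted p = 0.0199; 0.27 with normexp) passed. Mars2 (either MPP+ array) and Ears2 (control array 1, either MPP+ array or either 3-NPA array) lost their calls without the arrays in brackets (highest adjusted p = 0.137).

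**Figure D2:**
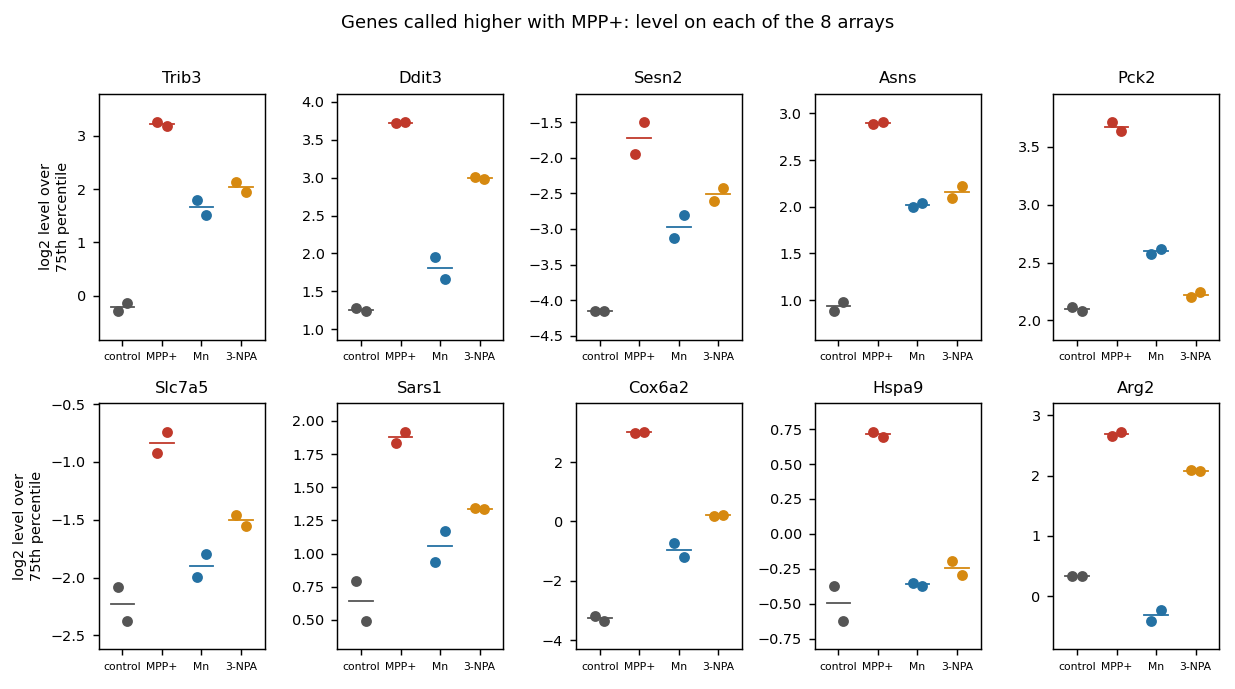
Level of 10 genes that rose with MPP+ on each of the 8 arrays (y axis, log2 over the array's 75th percentile; scales differ between panels). Points are arrays, with 2 per group, and lines are group means; both MPP+ points lie above both control points in every panel.

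Genes of the endoplasmic reticulum's own unfolded protein response were called at about the share of all genes (14.3%). Of 23 tested chaperones and response genes 1 rose and 2 fell, with a median of -0.04, but 0.07 with median scaling. Hspa5, the chaperone BiP and a standard readout of that response, was at 5.10 and 5.02 on the control arrays and at 4.83 and 5.06 on the MPP+ arrays and did not pass (adjusted p = 0.541). The groups overlapped for Hspa5, and Xbp1, the transcription factor of the response, did not pass either (0.19, adjusted p = 0.414). Derl3, which helps to retrieve misfolded proteins from the reticulum, fell from -3.86 and -3.84 to -5.22 and -5.39 (difference -1.45 ± 0.11, adjusted p = 0.00172; -0.84 with normexp). The calcium-binding chaperone Calr fell by 0.58 and Dnajb9 rose by 0.41 (0.26 with normexp). Calr (either control array, either MPP+ array or either 3-NPA array) and Dnajb9 (either control array, either Mn array, either MPP+ array or either 3-NPA array) lost their calls without the arrays in brackets (highest adjusted p = 0.270).

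Secreted factors that stressed cells release split in direction. Of 10 tested 4 rose and 2 fell. Beside Stc2, the hormone Fgf21 rose from -3.89 and -4.21 to -2.61 and -2.70 (difference 1.39 ± 0.13, adjusted p = 0.00303; 0.75 with normexp) and the endothelial growth factor Vegfa from 1.45 and 1.57 to 2.65 and 2.60 (difference 1.11 ± 0.11, adjusted p = 0.00345). Both Fgf21 and Vegfa lay higher on each MPP+ array than on each control array. Areg, a ligand of the epidermal growth factor receptor, passed at 1.01 (0.85 with normexp). The peptide adrenomedullin (Adm) fell from 5.57 and 5.57 to 4.25 and 4.28 (difference -1.31 ± 0.08, adjusted p = 0.00100), and Angptl4, an inhibitor of lipoprotein lipase, fell by 1.04 (adjusted p = 0.00213). Gdf15, a circulating marker of mitochondrial disease in people, was at 2.02 and 1.92 in control and 2.53 and 1.91 with MPP+ and did not pass (adjusted p = 0.526). Areg lost its call without either MPP+ array (highest adjusted p = 0.0873).

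None of 36 tested subunits of complex I, the enzyme that MPP+ blocks, was called in limma, against 14.3% of all genes tested. Their differences ran from -0.39 to 0.65, with a median of -0.03, but 0.02 with normexp and 0.08 with median scaling. An unadjusted p below 0.05 was reached by 7 of them, and normexp correction gave 1 higher and 1 lower calls. Ndufs1, the largest subunit, stood at 1.92 and 2.09 in control and 2.26 and 2.18 with MPP+ (adjusted p = 0.214), and Ndufv1, which binds NADH, at 4.34 and 4.50 in control and 4.48 and 4.56 with MPP+ (adjusted p = 0.545). Of 11 complex I assembly factors 3 passed, namely Ndufaf3 (0.65), Ndufaf4 (0.48) and Ndufaf6 (0.75). Ndufaf3 (control array 1, either MPP+ array or either 3-NPA array), Ndufaf4 (control array 1 or either MPP+ array) and Ndufaf6 (either MPP+ array) lost their calls without the arrays in brackets (highest adjusted p = 0.155). No member of complexes II and III passed in limma (16 tested, median 0.06, 2 at an unadjusted p below 0.05, 0 higher and 1 lower with normexp), and 1 of 16 ATP synthase members did, Atp5mf at -0.46. Of 21 members of the tricarboxylic acid cycle 1 passed, the cytosolic enzyme Idh1 at -0.82. Atp5mf (control array 2, either MPP+ array or either 3-NPA array) and Idh1 (either MPP+ array) lost their calls without the arrays in brackets (highest adjusted p = 0.181).

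Cox6a2 was the exception among the respiratory genes and had the largest rise of the genes tested. It encodes the heart and skeletal muscle form of cytochrome c oxidase subunit 6A, and its probe lies at chr1:187464580-187464639 (RGSC v3.4). It was at -3.19 and -3.34 on the control arrays and at 2.99 and 3.02 on the MPP+ arrays, a difference of 6.27 ± 0.16, or 77.1-fold (adjusted p = 0.000106). Mn arrays read -0.73 and -1.18 and 3-NPA arrays 0.18 and 0.23, so that MPP+ was the highest group by 3.96 ± 0.16 over Mn (adjusted p = 0.000781) and 2.80 ± 0.16 over 3-NPA (adjusted p = 0.000281). Cox6a1, the widely expressed form, was at 7.41 and 7.52 in control and 7.49 and 7.55 with MPP+ and did not pass (adjusted p = 0.784). Of the other oxidase subunits tested (14 in all, median 0.04) Cox7a2l passed, at 0.45. Cox7a2l lost its call without control array 1, either MPP+ array or either 3-NPA array (highest adjusted p = 0.160). Of 8 tested muscle markers none rose and 2 fell, the cardiac troponin Tnnt2 (-0.84, adjusted p = 0.00328) and the myosin Myh7 (-0.81, adjusted p = 0.00966), which was well above background on 1 of the 2 control arrays. Their summed linear signal, in units of the array's 75th percentile, was 3.02 and 3.02 on the control arrays and 2.35 and 2.33 on the MPP+ arrays, and the MyoD gene Myod1 was not well above background on both arrays of either group. Myh7 lost its call without MPP+ array 2 (highest adjusted p = 0.0735).

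The mitochondrial matrix chaperone Hspa9 (mortalin) went from -0.37 and -0.62 to 0.73 and 0.69, a rise of 1.21 ± 0.11 (adjusted p = 0.00278), and the matrix protease Lonp1 from 3.77 and 3.56 to 4.86 and 4.98, a rise of 1.26 ± 0.16 (adjusted p = 0.00643). Lonp1 lost its call without MPP+ array 2 (highest adjusted p = 0.0609). They were the 2 called of 16 tested chaperones and proteases of the organelle (12.5%, against 14.3% of all genes tested). The chaperonins Hspd1 (0.29, adjusted p = 0.151) and Hspe1 (0.26, adjusted p = 0.145) did not pass. Prdx3, the peroxiredoxin of the matrix, rose from 2.03 and 2.05 to 2.91 and 2.83 (difference 0.83 ± 0.09, adjusted p = 0.00476), and Arg2, the mitochondrial arginase, from 0.34 and 0.33 to 2.65 and 2.73 (difference 2.36 ± 0.09, adjusted p = 0.000394). Both genes were higher on each MPP+ array than on each control array. Of 15 tested genes of mitochondrial biogenesis and dynamics 2 rose and 1 fell (20.0%, against 14.3% of all genes tested). The 1 that fell was Fis1, a receptor for mitochondrial fission, from 4.84 and 4.95 to 4.05 and 3.94 (difference -0.90 ± 0.09, adjusted p = 0.00358). The regulator of mitochondrial DNA Tfam did not pass (0.06, adjusted p = 0.714).

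Glycolytic and hypoxia-responsive genes were more often lower than higher among those called. Of 23 glycolysis genes 1 rose and 4 fell (median -0.18; 2 without MPP+ array 1, 2 without MPP+ array 2 and 2 without either 3-NPA array), and of 18 hypoxia-responsive genes 2 rose and 5 fell (median -0.22; 2 without MPP+ array 1, 2 without MPP+ array 2, 3 without control array 2 and 2 without either 3-NPA array). Aldoc, the aldolase of brain, fell from 3.51 and 3.48 to 1.61 and 1.54 (difference -1.92 ± 0.13, adjusted p = 0.00141), and Slc16a3, the lactate exporter MCT4, from 6.08 and 6.20 to 5.07 and 5.13 (difference -1.04 ± 0.09, adjusted p = 0.00233). The groups did not overlap for either gene. The hypoxia marker Ankrd37 fell by 1.01 (adjusted p = 0.00251). Ndrg1 (-1.36), Pfkl (-0.74), Gpi (-0.58), Kdm3a (-0.57) and Bnip3l (-0.52) fell too. Ndrg1 (either control array, either MPP+ array or either 3-NPA array), Pfkl, Gpi, Kdm3a (control array 1, either MPP+ array or either 3-NPA array) and Bnip3l (control array 2, either Mn array, either MPP+ array or either 3-NPA array) lost their calls without the arrays in brackets (highest adjusted p = 0.217). The glucose carrier Slc2a1, at 2.85 and 2.76 in control and 2.50 and 2.51 with MPP+, and lactate dehydrogenase A (Ldha), at 6.69 and 7.16 in control and 6.42 and 6.21 with MPP+, did not pass (adjusted p = 0.0657 and 0.0619). The 1 glycolysis gene called higher, Ldhb (adjusted p = 0.0396), was dim on both control arrays with a bound under 1-fold, and its difference was -0.16 with normexp. Ldhb lost its call without control array 2, either MPP+ array or either 3-NPA array (highest adjusted p = 0.186).

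Lipid synthesis genes fell. Of 26 genes of cholesterol synthesis and uptake 20 fell and none rose (median -0.75; 9 without MPP+ array 1 and 8 without MPP+ array 2), and of 15 genes of fatty acid synthesis 10 fell and none rose (median -0.84; 5 without MPP+ array 1 and 4 without MPP+ array 2). These are the targets of the SREBP transcription factors. Insig1, which holds SREBP in the reticulum and is itself an SREBP target, went from 1.61 and 1.44 to -0.24 and -0.27 (difference -1.78 ± 0.10, adjusted p = 0.000825). Both MPP+ arrays lay below both control arrays by more than 1 unit. In the synthesis pathway itself, the falls were Hmgcs1 (-0.93, adjusted p = 0.00288), Acat2 (-0.98, adjusted p = 0.00302), Mvd (-0.92, adjusted p = 0.00323) and Fdps (-1.48, adjusted p = 0.00256). Squalene synthase (Fdft1), with a difference of 0.32 ± 0.14, did not pass (adjusted p = 0.170). Scd2, a desaturase of brain, was at 5.64 and 5.77 in control and 4.45 and 4.46 with MPP+ (difference -1.25 ± 0.10, adjusted p = 0.00218). Fatty acid synthase, Fasn (-1.06, adjusted p = 0.00213), the elongase Elovl6 (-1.21, adjusted p = 0.00278) and the acyl-CoA synthetase Acsl3 (-0.91, adjusted p = 0.00363) fell. Acly, which supplies cytosolic acetyl-CoA, fell by 0.61, and the desaturase Fads2 fell by 1.15. Acly (either MPP+ array) and Fads2 (MPP+ array 2) lost their calls without the arrays in brackets (highest adjusted p = 0.0791). Of 7 liver X receptor targets and efflux genes 2 fell, Abca1 (-0.92) and Mylip (-0.74), and of 16 fatty acid oxidation genes 5 fell and 1 rose (median -0.10, but 0.01 with median scaling; for those lower, 0 without MPP+ array 1, 0 without MPP+ array 2 and 3 without control array 1 or either 3-NPA array). Abca1 (control array 2 or either MPP+ array) and Mylip (control array 2, either Mn array, either MPP+ array or either 3-NPA array) lost their calls without the arrays in brackets (highest adjusted p = 0.167).

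**Figure D3:**
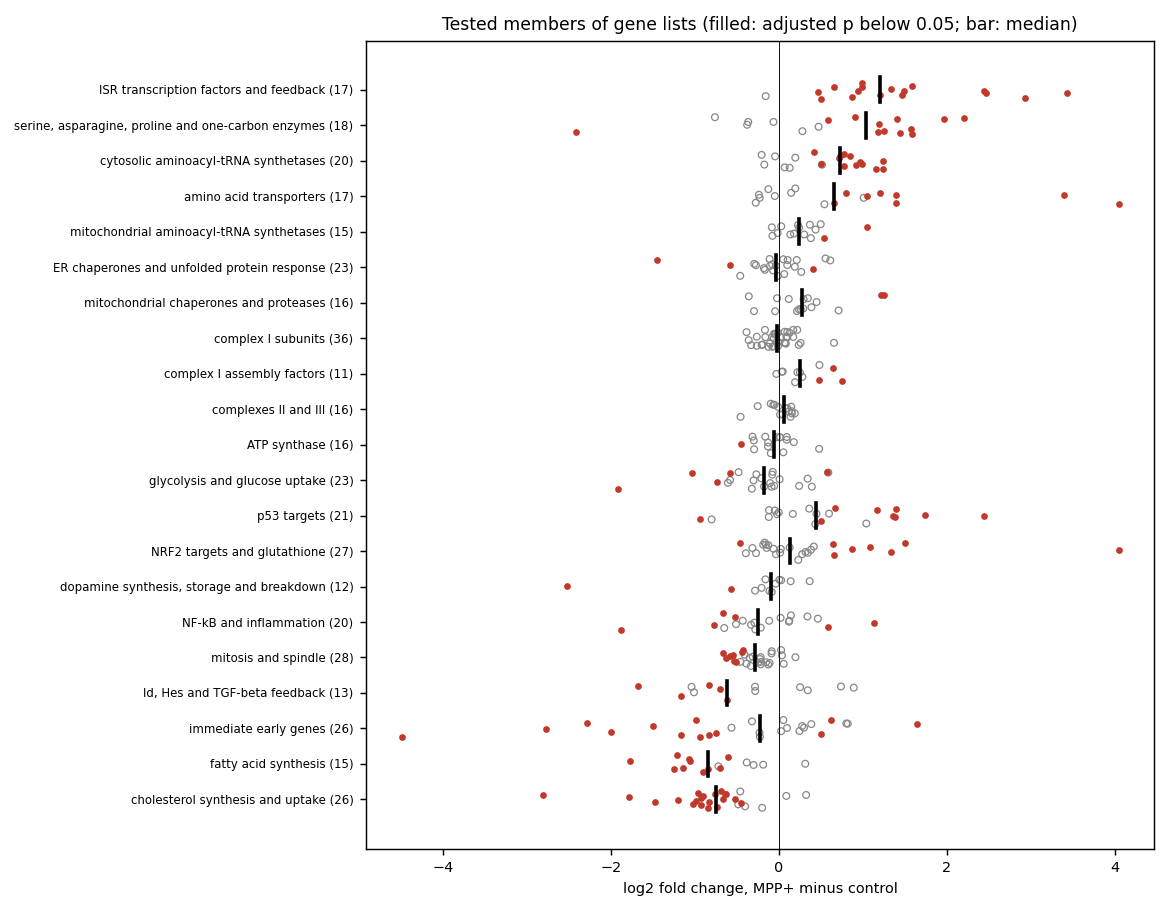
Log2 fold change with MPP+ (x axis) of every tested member of 21 gene lists (rows, with the number tested in brackets). Filled points were called at an adjusted p below 0.05, open points were not, and the bar is the median. Nearly all points of the stress response list and most points of both tRNA synthetase lists lie right of 0. Most points of the cholesterol and fatty acid lists lie left of 0.

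The immediate early genes, which growth signals switch on within minutes through SRF and the ERK kinases, fell in part. Of 26 tested 10 fell and 3 rose (median -0.23; for those lower, 6 without MPP+ array 1 and 6 without MPP+ array 2). Fos stood at 0.71 and 0.65 on the control arrays and at -3.66 and -3.95 on the MPP+ arrays, the largest fall of the genes with a symbol, with a difference of -4.49 ± 0.19, or 22.5-fold (adjusted p = 0.000394). Its probe lies at chr6:109561941-109562000 (RGSC v3.4). Egr1 went from 4.20 and 4.02 to 1.93 and 1.72 (difference -2.28 ± 0.16, adjusted p = 0.00148), and Egr2 from -0.39 and -0.55 to -3.22 and -3.28 (difference -2.78 ± 0.19, adjusted p = 0.00148). Ier2 was at 5.17 and 4.85 in control and 3.09 and 2.93 with MPP+ (difference -2.00 ± 0.14, adjusted p = 0.00148). In all 4 genes both MPP+ arrays lay below both control arrays, and also below both Mn and both 3-NPA arrays. Other falls were Junb (-1.50, adjusted p = 0.00263), Ier3 (-1.17, adjusted p = 0.00213) and Btg2 (-0.94). Btg2 lost its call without control array 1 or either MPP+ array (highest adjusted p = 0.111). The direction was not common to all members. Fosl1, a late AP-1 member, rose from -2.25 and -1.86 to -0.48 and -0.35 (difference 1.65 ± 0.18, adjusted p = 0.00418), Jund (0.03, adjusted p = 0.887) and Myc (0.24, adjusted p = 0.296) did not pass, and Klf2, dim on both control arrays, was at least 1.40-fold higher (adjusted p = 0.0312; 0.14 with normexp). Klf2 lost its call without either control array, either MPP+ array or either 3-NPA array (highest adjusted p = 0.158).

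The core letters of the serum response element (CC, any base, TAT, any pair of bases, GG, on either strand) stood in 344 of 27457 promoters (1.25%) and in 3 of 16 promoters of tested immediate early genes. These were the promoters of Egr1 and Egr2, which fell, and of Srf, which was not called. Egr1 and Egr2 were both among the 4 genes that fell below all other groups, and the stretch of Egr2 is shown as an example.
Egr2, chr20:21054503-21054536, minus strand: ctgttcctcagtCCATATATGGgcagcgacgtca

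Feedback genes of the ERK pathway were split, with 4 of 12 higher and 1 lower. Dusp1, a phosphatase of MAP kinases, fell from -2.29 and -2.16 to -4.55 and -4.35 (difference -2.23 ± 0.12, adjusted p = 0.000661) and was the member that fell. The ERK-induced transcription factors moved the other way. Etv5 went from 1.74 and 1.59 to 2.55 and 2.70 (difference 0.96 ± 0.10, adjusted p = 0.00418), and Etv4, dim on both control arrays and at -3.30 and -3.07 with MPP+, was at least 2.59-fold higher (adjusted p = 0.00172; 0.79 with normexp). Dusp2 (adjusted p = 0.0128; 0.06 with normexp) and Dusp4 (adjusted p = 0.0114; 0.04 with normexp) were called higher but were dim on both control arrays, with bounds under 1-fold. Dusp6 (0.36, adjusted p = 0.118), Spry2 (0.23, adjusted p = 0.509) and Spry4, dim on both control arrays (adjusted p = 0.0920), did not pass. Dusp2 and Dusp4 lost their calls without either MPP+ array (highest adjusted p = 0.0961).

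**Figure D4:**
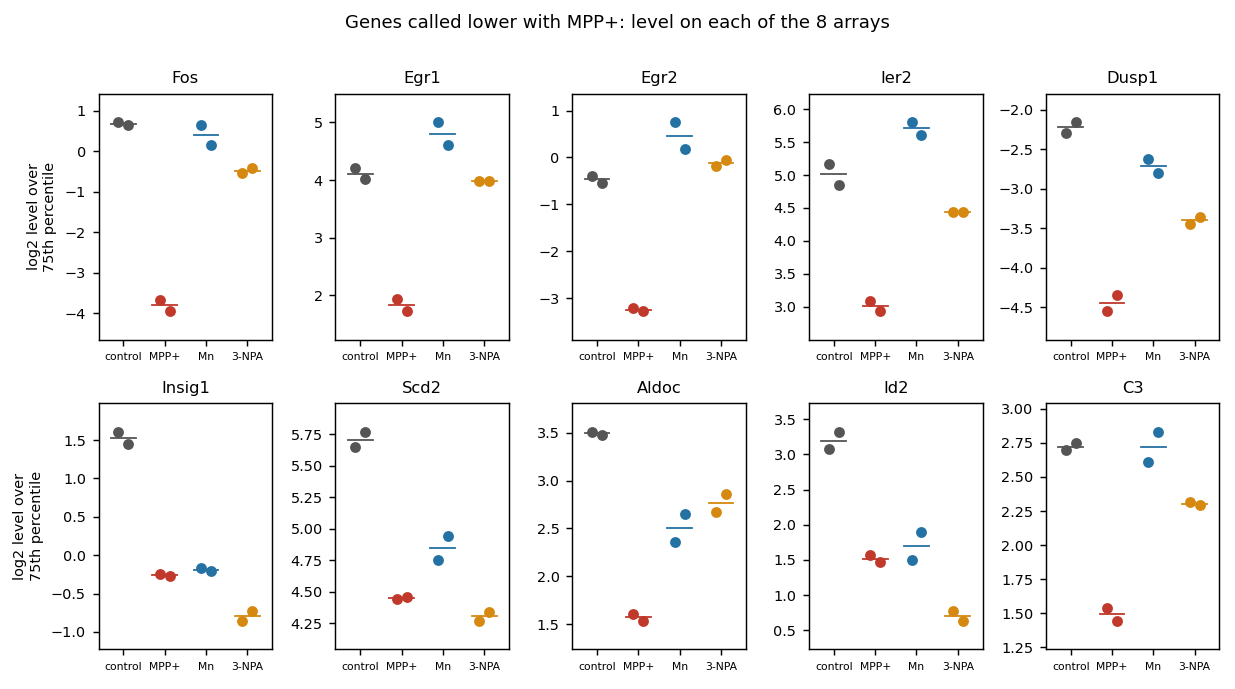
Level of 10 genes that fell with MPP+ on each of the 8 arrays (y axis, log2 over the array's 75th percentile; scales differ between panels). Points are arrays, with 2 per group, and lines are group means; both MPP+ points lie below both control points in every panel, and for Fos, Egr1, Egr2, Ier2 and Dusp1 below the Mn and 3-NPA points too.

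Among growth and cell cycle genes, the Id transcription regulators fell, and cell cycle inhibitors moved in both directions. Id2 and Id1, which block basic helix-loop-helix factors, went from 3.07 and 3.32 to 1.56 and 1.47 (difference -1.68 ± 0.16, adjusted p = 0.00323) and from 4.64 and 4.81 to 3.59 and 3.53 (difference -1.17 ± 0.09, adjusted p = 0.00213). With them, 5 of 13 members of the Id, Hes and TGF-beta feedback list fell and none rose (median -0.62; 4 without MPP+ array 1 and 2 without MPP+ array 2), among them Smad7 (-0.83) and Bmp4 (-0.62). Smad7 (either MPP+ array) and Bmp4 (MPP+ array 2) lost their calls without the arrays in brackets (highest adjusted p = 0.108). Of 16 G1 genes 5 fell and 1 rose (2 without MPP+ array 1, 2 without MPP+ array 2 and 3 without control array 1 or either 3-NPA array for those lower). The inhibitor Cdkn1c (p57) fell by 1.28 (adjusted p = 0.00431) and the Myc antagonist Mxd4 fell by 0.85 (adjusted p = 0.00300). The 1 member that rose was the inhibitor Cdkn1a (p21), by its brightest probe. Its probes disagreed, as given with the p53 targets below. Of 28 mitotic genes 8 fell and none rose (median -0.28), such as Plk1 (-0.58) and Aurka (-0.53), but the count was 0 without MPP+ array 1, 0 without MPP+ array 2, 5 without either control array and 4 without either 3-NPA array. The mitotic kinase Cdk1 stood at 5.45 and 5.63 in control and 5.38 and 5.48 with MPP+ and the proliferation marker Mki67 at 4.51 and 4.65 in control and 4.34 and 4.39 with MPP+, and neither passed (adjusted p = 0.480 and 0.173). Of 32 genes of DNA replication and nucleotide synthesis 1 rose and 1 fell, with a median of -0.18. Plk1 and Aurka lost their calls without either MPP+ array (highest adjusted p = 0.126).

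Histone genes, a list added after their values had been seen, were called lower in 20 of 59 and higher in 3 (median -0.32; for those lower, 11 without MPP+ array 1 and 9 without MPP+ array 2). H2bc8 fell from 1.42 and 1.44 to -0.81 and -0.86 (difference -2.26 ± 0.09, adjusted p = 0.000394), and H2ac25 (-1.38, adjusted p = 0.00318) and Hist1h4b (-1.04, adjusted p = 0.00294) fell too. LOC690131 and RGD1562378, members named by identifier only, fell as well (-2.76 and -2.34). Histone genes are near-identical copies whose probes can read more than 1 of them, and most of their transcripts carry no poly(A) tail, whereas labelling began from oligo(dT). The members are therefore uncertain singly.

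The p53 targets that were called were mostly higher. Of 21 tested 8 rose and 1 fell (median 0.45, or 0.36 with dim genes at their bound; 5 without MPP+ array 1 and 5 without MPP+ array 2 higher). The nuclease Aen went from 0.92 and 0.56 to 2.47 and 2.49 (difference 1.74 ± 0.15, adjusted p = 0.00228), cyclin G1 (Ccng1) from 0.25 and 0.27 to 1.67 and 1.58 (difference 1.36 ± 0.13, adjusted p = 0.00323) and Phlda3, an inhibitor of AKT, from -1.24 and -1.48 to -0.31 and -0.09 (difference 1.16 ± 0.13, adjusted p = 0.00424). The MPP+ arrays lay above the control arrays for all of them. Sesn2, the member with the largest rise, is also counted among the stress response genes, and Btg2, the 1 that fell, among the immediate early genes. Cdkn1a rose from 0.49 and 0.29 to 1.73 and 1.84 (difference 1.39 ± 0.13, adjusted p = 0.00295) by its brightest probe, while its other probe gave -0.11. The death receptor Fas passed at 1.38 (0.87 with normexp), while Bax (0.45, adjusted p = 0.351) and Bbc3 (0.43, adjusted p = 0.0672), which kill through mitochondria, did not pass. In the BCL2 family 2 of 17 rose and 3 fell. The BH3-only gene Hrk was dim on both control arrays and at -3.54 and -3.65 with MPP+, at least 2.01-fold higher (adjusted p = 0.000189; 0.91 with normexp; its other probe gave -0.15), Bid passed at 0.50 (0.22 with normexp), and the BH3-only genes Bcl2l11 (-1.09; -0.71 with normexp) and Bmf (-0.76) fell. Fas (either MPP+ array), Bid (control array 1, either MPP+ array or either 3-NPA array), Bcl2l11 (MPP+ array 2) and Bmf (control array 1 or either MPP+ array) lost their calls without the arrays in brackets (highest adjusted p = 0.150).

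Targets of NRF2, the regulator of the response to oxidants, were listed together with glutathione genes. Of 27 tested 7 were called higher and 1 lower (median 0.13), and fewer were called higher without either MPP+ array. Of those higher, 2, Slc7a11 and Chac1, are also on the lists above. Nqo1, a quinone reductase, went from -3.99 and -4.19 to -2.64 and -2.54 (difference 1.50 ± 0.14, adjusted p = 0.00302; 0.86 with normexp). Glutathione reductase (Gsr) rose by 0.86 (0.30 with normexp) and Nfe2l2, which encodes NRF2, by 0.64, whereas Gclc, the catalytic subunit for glutathione synthesis, fell by 0.46. Haem oxygenase 1 (Hmox1), a sensitive target, stood at 0.43 and -0.14 in control and -0.35 and -0.14 with MPP+ and did not pass (adjusted p = 0.267). Gclm was not well above background on both arrays of either group. Osgin1, dim on both control arrays, was at least 1.12-fold higher (adjusted p = 0.0131; 0.16 with normexp). Nqo1 and Gsr were well above background on 1 of the 2 control arrays. Gsr (MPP+ array 1), Nfe2l2 (either MPP+ array), Gclc (either control array, either MPP+ array or either 3-NPA array) and Osgin1 (MPP+ array 2) lost their calls without the arrays in brackets (highest adjusted p = 0.198). Of 17 antioxidant enzymes 2 rose and 2 fell (23.5% called, against 14.3% of all genes tested). Beside Prdx3 these were Gpx1 (0.72), Gpx7 (-0.36; -0.20 with normexp) and the thioredoxin inhibitor Txnip (-1.43), and Sod1 did not pass (-0.16, adjusted p = 0.253). Gpx1 (either MPP+ array), Gpx7 (either control array, either Mn array, either MPP+ array or either 3-NPA array) and Txnip (control array 1 or either MPP+ array) lost their calls without the arrays in brackets (highest adjusted p = 0.252). Of 17 tested genes of iron handling and metallothioneins 2 rose and 4 fell (median -0.18). Metallothionein 1 (Mt1), which binds zinc and copper, rose from 4.51 and 4.55 to 5.33 and 5.37 (difference 0.82 ± 0.08, adjusted p = 0.00358). The ferritin genes Fth1 (0.02) and Ftl1 (-0.04) did not pass.

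Inflammatory and complement genes that were called were mostly lower. Of 20 NF-kB and inflammatory genes 4 fell and 2 rose (median -0.25; 1 without MPP+ array 1, 1 without MPP+ array 2, 2 without control array 2 and 1 without either 3-NPA array lower), and of 15 complement and kinin genes 6 fell and 3 rose (median -0.43; 5 without MPP+ array 1 and 4 without MPP+ array 2 lower). The chemokine Ccl7 fell from -1.58 and -1.34 to -3.22 and -3.46 (difference -1.88 ± 0.14, adjusted p = 0.00168). Complement C3 went from 2.70 and 2.75 to 1.54 and 1.45 (difference -1.23 ± 0.10, adjusted p = 0.00241), and factor B (Cfb) from -0.13 and 0.04 to -1.20 and -1.24 (difference -1.18 ± 0.12, adjusted p = 0.00377). The groups did not overlap for any of these. Complement C5 (-2.54, adjusted p = 0.00183; -1.35 with normexp) and kininogen Kng1 (-1.93, adjusted p = 0.00345; -1.42 with normexp) fell from low levels. The chemokines Ccl2 (-0.78) and Cxcl2 (-0.67) and the NF-kB inhibitor Nfkbia (-0.52) fell too, whereas Cxcl1 did not pass (-0.28, adjusted p = 0.0914). Ccl2 (either MPP+ array or either 3-NPA array), Cxcl2 (control array 2, either MPP+ array or either 3-NPA array) and Nfkbia (either control array, either MPP+ array or either 3-NPA array) lost their calls without the arrays in brackets (highest adjusted p = 0.201). Interferon-responsive genes split, with 4 of 23 higher (2 without MPP+ array 1 and 2 without MPP+ array 2) and 5 lower (1 without MPP+ array 1, 1 without MPP+ array 2 and 3 without control array 1 or either 3-NPA array). Rsad2 (viperin) rose from -0.74 and -0.40 to 1.36 and 1.30 (difference 1.90 ± 0.18, adjusted p = 0.00300), and Usp18, which removes ISG15 from proteins, by 1.34 (adjusted p = 0.00392; 0.89 with normexp), while Isg15 itself fell by 0.78 (adjusted p = 0.00451). The regulators Irf1 (-0.61; its other probe -0.02) and Irf7 (-0.43) fell. Irf1 (either MPP+ array) and Irf7 (control array 1, either MPP+ array or either 3-NPA array) lost their calls without the arrays in brackets (highest adjusted p = 0.143).

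Dopamine genes were called at about the share of all genes (14.3%). Of 12 tested genes of dopamine synthesis, storage and breakdown 2 fell and none rose (median -0.10, but 0.01 with median scaling). Their summed linear signal, in units of the array's 75th percentile, was 32.9 and 35.2 on the control arrays and 35.8 and 35.1 on the MPP+ arrays. Their median level was -1.93 and -1.93 on the control arrays and -1.90 and -2.04 on the MPP+ arrays. Slc6a3, Maob, Drd1, Drd2 and Dbh were not well above background on both arrays of either group. Tyrosine hydroxylase (Th), the rate-limiting enzyme, was at -1.84 and -1.93 in control and -1.93 and -2.02 with MPP+ (adjusted p = 0.575), dopa decarboxylase (Ddc) was dim on both control arrays and at -5.28 and -5.38 with MPP+ (adjusted p = 0.709), and the vesicular monoamine transporter Slc18a2 was at -3.55 and -3.75 in control and -3.62 and -3.75 with MPP+ (adjusted p = 0.853). None of these passed. The members that fell were Aldh1a1, an aldehyde dehydrogenase that detoxifies the dopamine aldehyde, from -4.08 and -3.60 to -6.04 and -6.69 (difference -2.52 ± 0.29, adjusted p = 0.00529; -1.11 with normexp), and Gch1, which starts synthesis of the cofactor of Th (-0.57). Aldh1a1 was well above background on both control arrays but on 1 of the 2 MPP+ arrays, so that its MPP+ mean is uncertain. Gch1 lost its call without either MPP+ array (highest adjusted p = 0.133). Monoamine oxidase A (Maoa, -0.11, adjusted p = 0.514) and the dopaminergic transcription factor Nr4a2 (0.05, adjusted p = 0.802) did not pass. Of 15 listed dopaminergic fate factors 5 were tested, of which 2 were well above background on both control arrays. Of these 5, 1 was called, higher. Their median was 0.32, but -0.08 with normexp, where 0 were called higher. Lmx1a, Foxa2, En2 and Otx2 were not well above background on both arrays of either group. Fewer cells of a kind and less RNA per cell cannot be told apart in such bulk samples.

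The transporters that can carry MPP+ were read separately. The dopamine transporter gene Slc6a3 was not well above background on both arrays of either group, and neither were Slc22a2 and Slc22a3. Abcb1b, a P-glycoprotein that pumps drugs out of cells, rose from -0.71 and -0.68 to 0.63 and 0.54 (difference 1.28 ± 0.12, adjusted p = 0.00302). Both MPP+ arrays lay above both control arrays. The plasma membrane monoamine transporter Slc29a4 did not pass (0.04, adjusted p = 0.856), nor did the exporter Slc47a1 (0.77, adjusted p = 0.770).

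Of 12 tested genes linked to inherited Parkinson's disease 2 rose and 2 fell. Among them were the ubiquitin hydrolase Uchl1 (0.55), the retromer subunit Vps35 (0.57) and the redox sensor DJ-1 gene Park7 (-0.40). Uchl1 (either MPP+ array), Vps35 (either control array, either Mn array, either MPP+ array or either 3-NPA array) and Park7 (control array 2, either MPP+ array or either 3-NPA array) lost their calls without the arrays in brackets (highest adjusted p = 0.229). Pink1, which marks damaged mitochondria, stood at 0.75 and 0.65 in control and 0.55 and 0.63 with MPP+ and did not pass (adjusted p = 0.429). Lrrk2 was not well above background on both arrays of either group.

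Markers of other cell types were checked against the label of the line. Of 16 listed pan-neuronal markers 4 were tested, Tubb3, Map2, Ncam1 and Mapt, and Snap25, Syp, Dcx and the neurofilament genes were not well above background on both arrays of either group. The line thus carried Th and Slc18a2 signal without most neuronal markers on these arrays. The summed linear signal of the tested pan-neuronal markers was 6.32 and 5.96 on the control arrays and 7.40 and 6.84 on the MPP+ arrays, and Tubb3 passed at 0.72. That of 5 progenitor markers was 17.3 and 17.3 on the control arrays and 18.5 and 19.2 on the MPP+ arrays, where Vim passed at 0.56 and Nes did not (-0.04, adjusted p = 0.770). Tubb3 (either control array, either MPP+ array or either 3-NPA array) and Vim (control array 2, either Mn array, either MPP+ array or either 3-NPA array) lost their calls without the arrays in brackets (highest adjusted p = 0.212). The 4 tested astrocyte markers summed to 7.13 and 6.67 on the control arrays and 3.28 and 3.49 on the MPP+ arrays. Of these, Ndrg2 (-1.10, adjusted p = 0.00218) and the gap junction gene Gja1 (-1.03, adjusted p = 0.00339) fell, the folate enzyme Aldh1l1 rose (0.37, adjusted p = 0.0358) and the water channel Aqp4, dim on both control arrays, did not pass (adjusted p = 0.212). Aldh1l1 lost its call without either control array, either MPP+ array or either 3-NPA array (highest adjusted p = 0.210). Gfap and S100b were not well above background. Of 5 oligodendrocyte and 6 microglia markers none was called in limma (0 and 1 at an unadjusted p below 0.05; with normexp 0 higher and 0 lower, and 0 higher and 1 lower), with sums of 0.354 and 0.376 on the control arrays and 0.351 and 0.336 on the MPP+ arrays and of 0.432 and 0.560 on the control arrays and 0.410 and 0.360 on the MPP+ arrays, and Mbp, Ptprc and C1qa were not well above background. Fibroblast markers summed to 1.71 and 1.49 on the control arrays and 1.47 and 1.41 on the MPP+ arrays, and 2 of 5 fell. The part of these markers in the gene results was not tested.

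Matrix genes that were called were mostly lower, with 6 of 20 lower and 1 higher (median 0.10, but -0.03 with normexp; 4 without MPP+ array 1 and 4 without MPP+ array 2 lower). The protease inhibitor Timp1 fell from 5.44 and 5.42 to 4.61 and 4.57 (difference -0.84 ± 0.08, adjusted p = 0.00302) and the collagen-binding protein Sparc from 4.35 and 4.44 to 3.60 and 3.51 (difference -0.84 ± 0.09, adjusted p = 0.00399). The collagens Col1a1 (-1.06, adjusted p = 0.00311) and Col3a1 (-1.90, adjusted p = 0.00208; -1.03 with normexp) fell as well, while fibronectin (Fn1, 0.20, adjusted p = 0.320) and Col1a2, dim on both control arrays (adjusted p = 0.778), did not pass. Genes of protein disposal were read as well. None of 14 cytosolic heat shock genes was called in limma (3 at an unadjusted p below 0.05, 0 higher and 0 lower with normexp), 1 of 31 proteasome genes fell, and 1 of 21 autophagy genes rose and 2 fell. Among 23 lysosomal genes 3 rose and 2 fell (21.7% called, against 14.3% of all genes tested). The largest difference was that of Gpnmb, a glycoprotein of lysosomes and pigment granules. It went from -1.15 and -1.16 to 0.99 and 0.90 (difference 2.10 ± 0.10, adjusted p = 0.000459). The adaptor Sqstm1 passed at 0.43 and the LC3 gene Map1lc3b at -0.46 (its other probe -0.22). Sqstm1 (either control array, either MPP+ array or either 3-NPA array) and Map1lc3b (control array 2, either MPP+ array or either 3-NPA array) lost their calls without the arrays in brackets (highest adjusted p = 0.187).

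Several of the largest differences lay outside these lists. The fucosyltransferase Fut1 was dim on both control arrays and at -1.09 and -1.16 with MPP+, at least 11.1-fold higher (adjusted p = 0.000394; 2.59 with normexp). The DNA repair gene Mgmt, which removes alkyl groups from guanine, went from -4.76 and -4.24 to -1.20 and -1.39 (difference 3.21 ± 0.29, adjusted p = 0.00267; 2.01 with normexp) and was well above background on 1 of the 2 control arrays. The inflammatory caspase gene Casp4 rose from -0.55 and -0.49 to 2.11 and 2.00 (difference 2.58 ± 0.12, adjusted p = 0.000459), and Ifi27l2b from 2.41 and 2.62 to 5.37 and 5.37 (difference 2.86 ± 0.13, adjusted p = 0.000459). Cyren, an inhibitor of end joining of DNA, was dim on both control arrays and at -3.12 and -3.22 with MPP+, at least 2.69-fold higher (adjusted p = 0.00172; 0.74 with normexp). Among the falls, the sulfotransferase Sult1a1 went from -2.88 and -2.37 to -4.78 and -5.18 (difference -2.36 ± 0.22, adjusted p = 0.00284; -1.55 with normexp) and the nucleotidase Nt5c1b from -1.10 and -1.31 to -3.33 and -3.45 (difference -2.19 ± 0.11, adjusted p = 0.000568). In each of these genes the groups did not overlap. Btnl5 (-3.19; -1.51 with normexp; its other probe -0.73) and Tex19.1 (-2.76; -1.25 with normexp) also fell, with adjusted p of 0.00323 and 0.00213, and Btnl5 was well above background on 1 of the 2 MPP+ arrays.

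Direct comparisons then asked which of these differences set MPP+ apart from the other toxicants. Their differences hold no control values, although the control arrays enter the shared variance and the choice of tested genes (without either control array the calls were 1787 against Mn and 5448 against 3-NPA). All rest on the same MPP+ arrays, and 3-NPA has neither dose nor time in the labels. Against Mn, 1566 genes were called (9.63% of those tested), 759 higher with MPP+ (4.67%) and 807 lower (4.96%). Against 3-NPA, 4881 were called (30.0%), 2199 higher (13.5%) and 2682 lower (16.5%). The calls against Mn were 240 without MPP+ array 1, 175 without MPP+ array 2, 630 without Mn array 1, 956 without Mn array 2 and 711 without either 3-NPA array. Those against 3-NPA were 2007 and 1922 without MPP+ arrays 1 and 2, and 2170 and 2171 without 3-NPA arrays 1 and 2. The 3-NPA arrays were extracted from their images in a later run, per the file headers, and that run and the 3-NPA group cannot be told apart. The Mn arrays lay in the same slide row as the control arrays, and MPP+ and 3-NPA in the other row. Genes called the same way against control, Mn and 3-NPA numbered 197 higher and 209 lower with MPP+.

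The stress response genes were higher with MPP+ than with Mn in 11 (2 without MPP+ array 2) of 17 and higher than with 3-NPA in 7 (2 without MPP+ array 2 or 3-NPA array 2), with none lower in either. Trib3 was at 1.80 and 1.52 with Mn and 2.14 and 1.95 with 3-NPA, below MPP+ by 1.56 ± 0.13 (adjusted p = 0.00304) and 1.17 ± 0.13 (adjusted p = 0.00213). Ddit3 was at 1.95 and 1.67 with Mn and 3.01 and 2.98 with 3-NPA, and MPP+ exceeded them by 1.92 ± 0.11 (adjusted p = 0.00150) and 0.73 ± 0.11 (adjusted p = 0.00613). For both genes the order of the groups from the highest down was MPP+, 3-NPA, Mn and control. Cytosolic aminoacyl-tRNA synthetases were higher than with Mn in 8 (0 without Mn array 1 or either MPP+ array) of 20 and higher than with 3-NPA in 14 (5 without MPP+ array 2 or 3-NPA array 2). The serine, proline and one-carbon enzymes were higher in 9 (1 without MPP+ array 1) and 12 (5 without MPP+ array 1 or 3-NPA array 1) of 18. Of 17 amino acid transporters 7 were higher and 1 was lower than with Mn, and 2 were higher and 2 lower than with 3-NPA. Of 10 secreted stress factors 1 was higher and 2 were lower than with Mn, and 0 were higher and 5 lower than with 3-NPA. Over all genes tested, 4.67% were called higher and 4.96% lower than with Mn, and 13.5% higher and 16.5% lower than with 3-NPA. Pck2 exceeded Mn by 1.08 ± 0.08 (adjusted p = 0.00238) and 3-NPA by 1.45 ± 0.08 (adjusted p = 0.000281). Arg2 exceeded Mn by 3.01 ± 0.09 (adjusted p = 0.000375), with -0.40 and -0.23 on the Mn arrays and 2.09 and 2.07 on the 3-NPA arrays.

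Of the complex I subunits 11 (0 without either MPP+ array or 3-NPA array 2) of 36 were higher with MPP+ than with 3-NPA and none lower, and against Mn 0 were higher and 1 lower. Assembly factors were higher than with 3-NPA in 7 (1 without either MPP+ array or 3-NPA array 1) of 11, and proteasome genes in 14 (4 without MPP+ array 2) of 31. Over all genes tested, 13.5% were called higher with MPP+ than with 3-NPA and 30.0% in either direction. Hspa9 was at -0.35 and -0.37 with Mn and -0.19 and -0.29 with 3-NPA, and MPP+ exceeded them by 1.07 ± 0.11 (adjusted p = 0.00484) and 0.95 ± 0.11 (adjusted p = 0.00218). Lonp1 was at 3.42 and 3.80 with Mn and 3.50 and 3.66 with 3-NPA, and MPP+ exceeded them by 1.31 ± 0.16 (adjusted p = 0.00817) and 1.34 ± 0.16 (adjusted p = 0.00241). For the chaperone and the protease alike, the Mn and 3-NPA arrays read close to the control arrays while both MPP+ arrays stood above. Prdx3 exceeded Mn by 0.97 ± 0.09 (adjusted p = 0.00392) and 3-NPA by 0.78 ± 0.09 (adjusted p = 0.00251). Against Mn, Hspa9 (either MPP+ array) and Lonp1 (either MPP+ array) lost their calls without the arrays in brackets (highest adjusted p = 0.0802).

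The immediate early genes were lower with MPP+ than with Mn in 13 (7 without either MPP+ array) of 26 and lower than with 3-NPA in 16 (10 without either MPP+ array or 3-NPA array 2), with none higher. Fos was at 0.66 and 0.16 with Mn and -0.55 and -0.41 with 3-NPA, and MPP+ differed from them by -4.21 ± 0.19 (adjusted p = 0.000781) and -3.33 ± 0.19 (adjusted p = 0.000267) on the log2 scale. Egr1 differed by -2.98 ± 0.16 from Mn and -2.16 ± 0.16 from 3-NPA, and Ier2 by -2.69 ± 0.14 and -1.43 ± 0.14. Junb was lower than with Mn (-1.73, adjusted p = 0.00238), and against 3-NPA it was not called (-0.07, adjusted p = 0.726). Inflammatory genes were lower than with Mn in 14 (8 without either MPP+ array) of 20. Against 3-NPA 3 were lower and 5 higher. Over all genes tested, 4.96% were called lower with MPP+ than with Mn and 16.5% lower than with 3-NPA. Ccl7 was at -0.55 and -0.37 with Mn and -2.06 and -2.07 with 3-NPA, and MPP+ was lower than both (-2.89 ± 0.14, adjusted p = 0.000978, and -1.28 ± 0.14, adjusted p = 0.00177). Interferon-responsive genes were lower with MPP+ than with 3-NPA in 16 (10 without MPP+ array 2) of 23. Among them was Rsad2, at 3.25 and 3.36 with 3-NPA (-1.98 ± 0.18, adjusted p = 0.00107), although that gene rose against control. NRF2 targets and glutathione genes were lower than with 3-NPA in 10 of 27, such as Nqo1 (-1.13 ± 0.14, adjusted p = 0.00298). They were lower in fewer without either MPP+ array or either 3-NPA array. Cdkn1a, by its brightest probe, was lower than with 3-NPA too (-1.50 ± 0.13, adjusted p = 0.000931). The probes of that gene disagreed against control, as given with the p53 targets.

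The lipid genes that fell against control were then set against the other toxicants, where 9.63% of all genes were called against Mn and 30.0% against 3-NPA. Of 26 cholesterol genes 1 was higher and 3 were lower than with Mn, and 6 (1 without either MPP+ array or 3-NPA array 1) were higher and 1 lower than with 3-NPA. Insig1 with MPP+ differed from Mn by -0.07 ± 0.10 (adjusted p = 0.685) and from 3-NPA by 0.54 ± 0.10 (adjusted p = 0.0105). Against 3-NPA, Insig1 (either MPP+ array or 3-NPA array 1) lost its call without the arrays in brackets (highest adjusted p = 0.0749). Aldh1a1 was at -3.70 and -3.87 with 3-NPA. It was lower with MPP+ than with 3-NPA (-2.58 ± 0.29, adjusted p = 0.00215). The gene was not well above background on either Mn array, so that no difference from Mn is given.

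The largest differences from Mn included genes that were high with Mn. Mgp, an inhibitor of calcification, was at 2.63 and 2.33 with Mn and -2.15 and -2.13 with MPP+ (difference -4.62 ± 0.13, adjusted p = 0.000352), against -1.16 and -1.35 in control. Srpx2, a sushi-repeat protein of the cell surface, was at -1.06 and -1.34 with Mn and -4.57 and -4.42 with MPP+ (difference -3.30 ± 0.15, adjusted p = 0.000781), and control read -5.06 and -4.80. The cytokine gene Csf2 was also lower with MPP+ (-3.25 ± 0.24, adjusted p = 0.00206), at -3.28 and -3.03 with Mn, where it was well above the background. Tecpr1, which joins autophagosomes to lysosomes, was at 4.84 and 4.77 with MPP+, 2.35 and 2.04 with Mn and 2.01 and 1.65 with 3-NPA, and MPP+ exceeded these by 2.61 ± 0.19 (adjusted p = 0.00206) and 2.97 ± 0.19 (adjusted p = 0.000392). Against control its rise was 1.35 ± 0.19 (adjusted p = 0.00974). Against control, Tecpr1 and Mgp lost their calls without either MPP+ array (highest adjusted p = 0.0816). The largest difference downward from 3-NPA was that of Ldhb, the lactate dehydrogenase form of heart, at -0.65 and -0.54 with 3-NPA and -5.54 and -5.54 with MPP+ (-4.95 ± 0.13, adjusted p = 0.000102). Rgs2, a regulator of G protein signals, was at -1.07 and -1.16 with 3-NPA and -5.27 and -4.99 with MPP+ (-4.02 ± 0.30, adjusted p = 0.000649). The chemokine Ccl20 was higher with MPP+, at -0.18 and -0.29, than with 3-NPA, at -3.05 and -3.19 (2.89 ± 0.16, adjusted p = 0.000247), and control read 0.07 and 0.49. Gpnmb was lower with MPP+ than with 3-NPA (-1.71 ± 0.10, adjusted p = 0.000295) and had a difference of 0.00 ± 0.10 from Mn (adjusted p = 0.988). Histone genes were higher with MPP+ than with 3-NPA in 21 of 59 and lower in 4, against 13.5% and 16.5% of all genes tested.

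**Figure D5:**
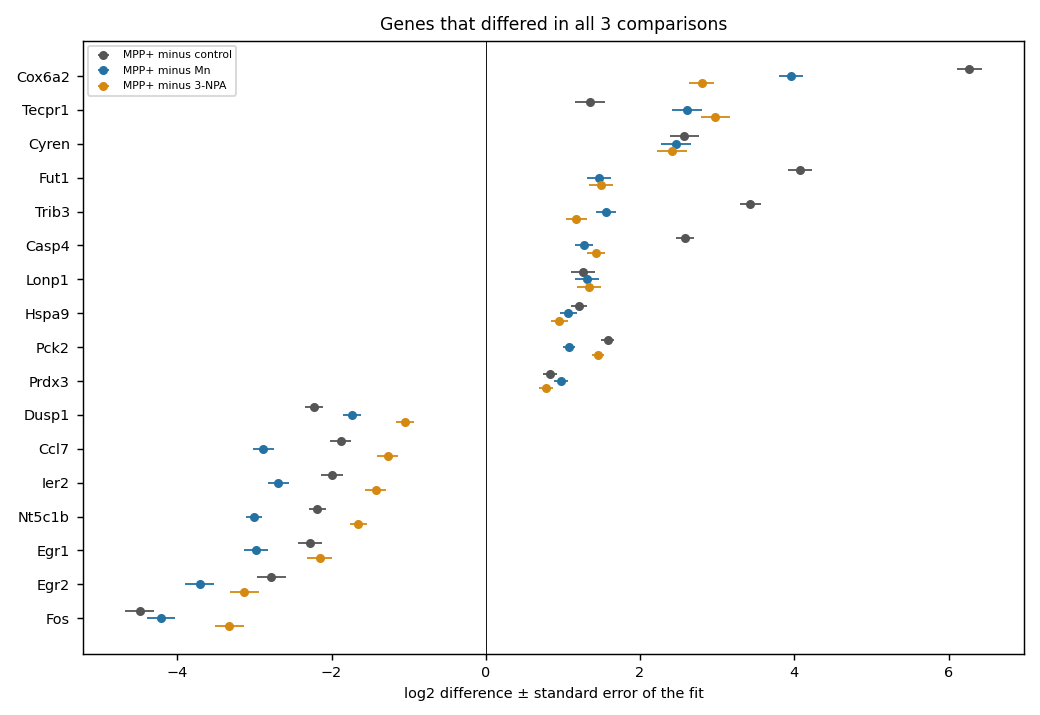
Log2 difference of MPP+ from control, from Mn and from 3-NPA (x axis, with the standard error of the fit) for 17 genes that were called the same way in all 3 comparisons (rows). Cox6a2 lies farthest right and Fos farthest left.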

How the data were processed

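RNA of N27 cells was labelled with Cy3 and hybridised to 8 single-colour arrays, 2 per group, per the labels' protocols. The deposited scanner files hold spot intensities from Agilent Feature Extraction 11.5.1.1, with background already subtracted, and probe positions on RGSC v3.4, per the file headers. A deposited table of log2 values, whose making is not given in the sources used here, served as an alternative: its columns had medians of -3.99 and -4.11 for control and -4.34 and -4.38 for MPP+, and each correlated with the log2 signal of its array at 0.9966 or more, so its scale was taken as log2 near the 75th percentile, with the exact scaling unknown.

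Spots marked as outliers and control spots were left out, log2 processed signals were averaged over the spots of a probe, and the 75th percentile of each array was set to 0. A probe counted as well above background where more than 0.5 of its spots did. The brightest probe stood for a gene, and 2242 genes had more than 1 kept probe, of which 3 had probes called in opposite directions. Group means were fitted on all 8 arrays in limma 3.58.1 (R 4.3.3) and moderated with eBayes, and p-values were adjusted by the Benjamini-Hochberg method over all 16262 genes, with a threshold of 0.05. The same genes were tested in each comparison. The fit had 4 residual and 2.16 prior degrees of freedom. The number of arrays limits the precision. The script was tested on simulated data.

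Genes were named by rule: the 15 largest rises and falls with a symbol and no overlap between groups, up to 6 called members per direction and up to 2 bright members that did not pass per list, all members of lists with at most 12 tested, up to 8 called genes per direction in each direct comparison, and a fixed set of further genes. Some members are counted in their lists but not reported singly here. The members and lists were chosen with earlier results of these data known. Probe names were updated through RefSeq tables, from which the promoter sequences (GRCr8) also came. Duplicate arrays of a group correlated at 0.991 (control) and 0.997 (MPP+).

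Alternatives were normexp background correction with an offset of 50, quantile and median scaling, the deposited table, other filters on dim probes, other probe summaries, other variance settings, fits on fewer arrays, a replicate block, a slide column block, a 2-fold rule and leaving out each array.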

Additional observations from a re-analysis of the deposited data

How the results depend on the processing

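The 2327 calls of MPP+ against control numbered 8821 with no filter on dim probes, 1089 from the 4 arrays of the pair alone, 1301 without the 3-NPA group, 1500 with slide column as a block and 536 under the 2-fold rule. Leaving out 1 array gave 414 to 2401. The 1566 calls against Mn became 580 with no filter, 384 from the 4 arrays of the pair, 711 without the 3-NPA group and 342 under the 2-fold rule, with 175 to 1787 when 1 array was left out. The 4881 calls against 3-NPA became 7617 with array weights and 1136 under the 2-fold rule, with 1922 to 5448 when 1 array was left out. The share of calls that were higher, 56.5%, became 41.3% with normexp, 75.4% with median scaling and 16.9% with no filter, and lay between 51.2% and 57.6% when 1 array was left out. Fits on fewer arrays have fewer degrees of freedom by construction; for the other changes the cause was not tested.

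The labels do not say that replicate numbers pair the arrays, and deviations of same-numbered control and MPP+ arrays correlated at 0.025. A replicate block gave 2078, 1308 and 4743 calls against control, Mn and 3-NPA. The other alternatives stayed within 1.5 times of these counts. Among the named genes that were called, 1 turned direction, Ldhb at -0.16 with normexp. Where a named gene lost its call without 1 array, the report gives it beside the gene. No spot was saturated, so that alternative was not run. Where one array was left out of a pair, the lone array was taken to vary like the other groups. Low signal limits the calls of genes near the background.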
